A study of Homo sapiens with 4 samples.

Results

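The regions described here are stretches of open chromatin that lie inside genes, past the first intron. They were taken from an ATAC-seq table of MCF10A cells, an established, non-tumorigenic human mammary epithelial line. ATAC-seq cuts accessible DNA with a transposase and sequences the fragments, so reads pile up where chromatin is open. A region was a member if its identifier placed it in the set common to both groups and its annotation named intron 2 or a later one. In all, 7858 regions met this rule, which is 23.2% of the 33913 common regions and 13.5% of the 58127 regions in the table. Another 5010 common regions lay in intron 1 of a gene. One group of 2 libraries, lettered A and B, carried a short hairpin (shG8d) against SNHG8d, which the study names as a form of SNHG8, a host gene of small nucleolar RNA. The other group, also of 2 libraries lettered A and B, carried a control hairpin, shNC. Separate cultures are not stated for the libraries within a group, so tests measure the spread between these libraries alone, which may be technical. The labels do not say whether a hairpin line was 1 clone or a pool.

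Introns hold many of the enhancers of mammalian genes. A transcription factor that binds an intronic enhancer can act on the promoter of the gene around it or on a gene further away, so the gene that hosts a region need not be the gene it controls. The first intron adjoins the promoter, and open chromatin of the promoter can reach into it. Later introns are mostly far from any start site, and their open regions include enhancers, binding sites of the insulator protein CTCF, and starts of antisense RNAs and microRNAs.

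Members were chosen by the set name, which the authors may have derived from the same 4 libraries. Differences between the groups at these regions are therefore descriptions, and a call marks size against spread with no claim beyond that. The column labels also contradict each other between region sets. Each deposited value is a whole multiple of what 1 read is worth in its library. In the common regions these steps were 0.842 and 0.807 normalized counts in the columns labelled shG8d A and B, against 1.21 and 1.17 in those labelled shNC A and B. In both sets specific to a group the same 4 steps stood under the opposite group labels. A library is called here by its label in the common regions, and which way the knockdown went is not claimed. With the opposite labels every difference below would keep its size and change its sign.

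Sequences of the start sites on which the gene accounts turn are given here, so that the regions can be placed beside them. The windows run from 250 bases before to 50 bases after a RefSeq start on GRCh38.p14, 5′ to 3′ on the strand of the gene. YAP1 is shown because each of its 3 members was lower in the libraries labelled shG8d, and LAMA3 because a promoter region was called higher and 2 of its 4 members lower. The YAP1 window is chr11:102110197-102110496 and the LAMA3 window is chr18:23872770-23873069, both on the plus strand. Capitals mark matches, searched on both strands, to GGAATG, the core of the motif bound by TEAD factors, and to TGACTCA or TGAGTCA, the motif bound by AP-1. The table lists 2 promoter regions for each gene. By the deposited distances, the stronger YAP1 promoter region lay 451 bases upstream of a YAP1 start and the weaker 210. For LAMA3 the stronger lay 108 bases and the weaker 73 bases upstream of a start. Both genes have several starts, and which of these regions belongs to the printed window was not tested.

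YAP1 promoter: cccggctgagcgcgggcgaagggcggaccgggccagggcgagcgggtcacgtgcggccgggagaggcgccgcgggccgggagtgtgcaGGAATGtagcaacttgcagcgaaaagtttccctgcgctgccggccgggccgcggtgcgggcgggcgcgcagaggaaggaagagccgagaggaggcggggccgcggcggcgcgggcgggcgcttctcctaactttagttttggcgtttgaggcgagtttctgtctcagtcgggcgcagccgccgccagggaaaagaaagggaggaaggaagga

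LAMA3 promoter: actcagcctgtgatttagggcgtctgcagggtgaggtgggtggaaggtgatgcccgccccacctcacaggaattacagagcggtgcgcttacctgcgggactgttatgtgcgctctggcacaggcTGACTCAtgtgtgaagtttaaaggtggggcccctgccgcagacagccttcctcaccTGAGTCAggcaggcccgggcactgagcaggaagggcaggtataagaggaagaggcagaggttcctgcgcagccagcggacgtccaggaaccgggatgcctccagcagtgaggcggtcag

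The YAP1 window held 1 TEAD match, 40 CG pairs and 70.7% G or C. The LAMA3 window held 2 AP-1 matches, 13 CG pairs and 61.7% G or C. No match overlapped one of the other motif, since each window held matches to 1 motif only. Among all 35116 promoter windows in the RefSeq table, 14.0% held the TEAD letters and 4.95% held the AP-1 letters. A match is a description of the letters and does not show a bound site. A window was found for 3144 of the 4021 host genes.

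The members lay deep inside their genes. The median intron number was 4 and the highest was 106. The median distance to the nearest start site was 37708 bp, against 10560.5 bp for the first-intron regions, and 46 members lay within 1000 bp of a start. A host gene was found for 7762 members through the transcript named in the annotation, and 96 had none. The 4021 host genes mostly held a single member (2399 genes), while 274 genes held 5 or more and together carried 1930 members. Where both genes were known, the nearest start belonged to a gene other than the host for 42.0% of 7672 members. For 29.7% of all members, that start lay downstream of the region.

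Signal at the members was modest. The median member had 69.0 and 67.8 normalized counts in the libraries labelled shG8d, against 73.7 and 77.3 in those labelled shNC. These medians rest on 82 and 84 reads, against 61 and 66 reads. In all regions together the libraries labelled shG8d held 8124488 and 8111839 reads and those labelled shNC held 4457248 and 4344212, so depth and label cannot be told apart. Of the reads in members, 1226166 and 1218008 came from libraries labelled shG8d, and 702652 and 712483 from those labelled shNC. In bulk ATAC-seq, fewer cells with an open region and less opening in each cell cannot be told apart. Promoter regions were listed for 11 of 15 hemidesmosome and laminin genes, such as ITGB4 and LAMB3, and for 19 of 23 junction genes, such as CDH1. They were also listed for 9 of 21 matrix and mesenchymal genes, such as SNAI2 and CDH2. For neuronal genes they were listed for 4 of 23 and for blood cell genes 3 of 20. No promoter region was listed for TP63 or for the blood cell marker PTPRC.

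More members were lower than higher in the libraries labelled shG8d. A region was called where limma's moderated test, fitted to all 58127 regions on log2(normalized count + 1), gave a Benjamini-Hochberg adjusted p under 0.05. By this rule 703 members (8.95%) were called higher and 1220 (15.5%) lower, or 24.5% in all. Among all regions tested 23.6% were called, 11.1% of them higher and 12.4% lower, as shares of all regions. Over the common regions 25.7% were called, with 10.7% higher and 15.0% lower. Since the set name may rest on this contrast, nothing is read from the members' counts against these shares. Called differences of at least 2-fold numbered 207 higher and 525 lower. Of all regions 5.21% were called higher and 6.50% lower by at least 2-fold, and of the common regions 3.19% and 5.58%.

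The median log2 difference over members, labelled shG8d minus shNC, was -0.15, with quartiles at -0.55 and 0.25, and 59.8% of members lay below 0. The median was -0.12 over common regions and -0.02 over all regions. First-intron regions had a median of -0.19, with 7.64% called higher and 17.1% lower. Intergenic regions had a median of -0.18. Promoters had a median of 0.06, with 19.9% called higher and 11.7% lower. The members' median thus lay nearer to those of first introns and intergenic regions than to that of promoters. The counts rest on the authors' scaling. With the libraries scaled to equal totals instead, 252 members were called higher and 2937 lower, and the median over all regions itself moved to -0.36. With 1 library left out, called members ranged from 229 to 932 higher and from 402 to 1628 lower, lowest without shG8d A (229 and 402) and without shG8d B (294 and 584). Of 102 called regions among those named below and in the lists, 52 were called again without each library in turn.

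**Figure D1:**
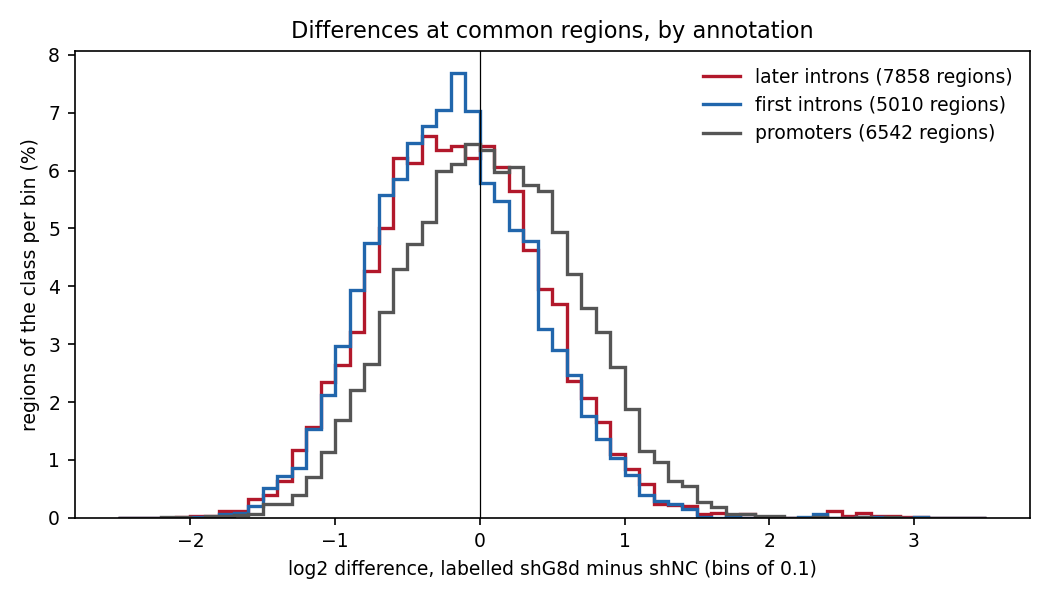
Share of regions (vertical axis, %) by log2 difference, libraries labelled shG8d minus shNC (horizontal axis, bins of 0.1), for common regions in later introns, in first introns and at promoters. The curve of the 7858 later-intron regions follows that of first introns, with medians of -0.15 and -0.19, and lies left of promoters, whose median was 0.06.

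Position within the gene made little difference to the median. Members in intron 2 (2316 regions) had a median of -0.17, those in intron 3 (1309) -0.15, those in introns 4 to 5 (1373) -0.13, those in introns 6 to 10 (1457) -0.14 and those in introns above 10 (1403) -0.16. The 915 members in the last intron of their transcript had a median of -0.15, as did the 6943 in other introns. Host genes that make long noncoding RNAs (766 members) had a median of -0.24, and protein-coding hosts (6866 members) -0.14. By chromosome, the medians ran from -0.27 on X (147 members) to 0.07 on 22 (137 members), leaving out 2 members on Y.

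Distance from a start and signal strength both went with the difference. Members under 10 kb from a start had a median of -0.07, with 12.3% called higher and 13.5% lower. Members at 100 kb or more had a median of -0.25, with 5.92% higher and 16.9% lower. Signal was also lower far away, so the same distances were compared at like signal. At a mean of 50 to 100 normalized counts the medians were -0.09 under 10 kb, -0.14 from 10 to 50 kb, -0.15 from 50 to 100 kb and -0.24 at 100 kb or more. At a mean of 100 to 200 they were 0.10, 0.06, -0.03 and -0.10, so the order by distance stood at both levels of signal.

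The weakest members, with a mean under 50, had medians of 34.5 and 34.7 normalized counts in the libraries labelled shG8d, against 42.3 and 44.5 in those labelled shNC. Their median log2 difference was -0.36, with 16 of 1916 called higher and 239 lower. Members at 100 to 150 had a median of 0.00, with 232 of 1464 called higher and 225 lower. Members at 300 to 1000 had a median of 0.21, with 28 of 77 called higher and 7 lower. Promoters of the same signal had -0.29 under 50, 0.10 at 100 to 150 and 0.30 at 300 to 1000. At 150 to 200 the members had a median of 0.12, against 0.25 for promoters, and at 200 to 300 lower medians of 0.03 against 0.21. Depth differs with label, and its part in this relation to signal was not tested.

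**Figure D2:**
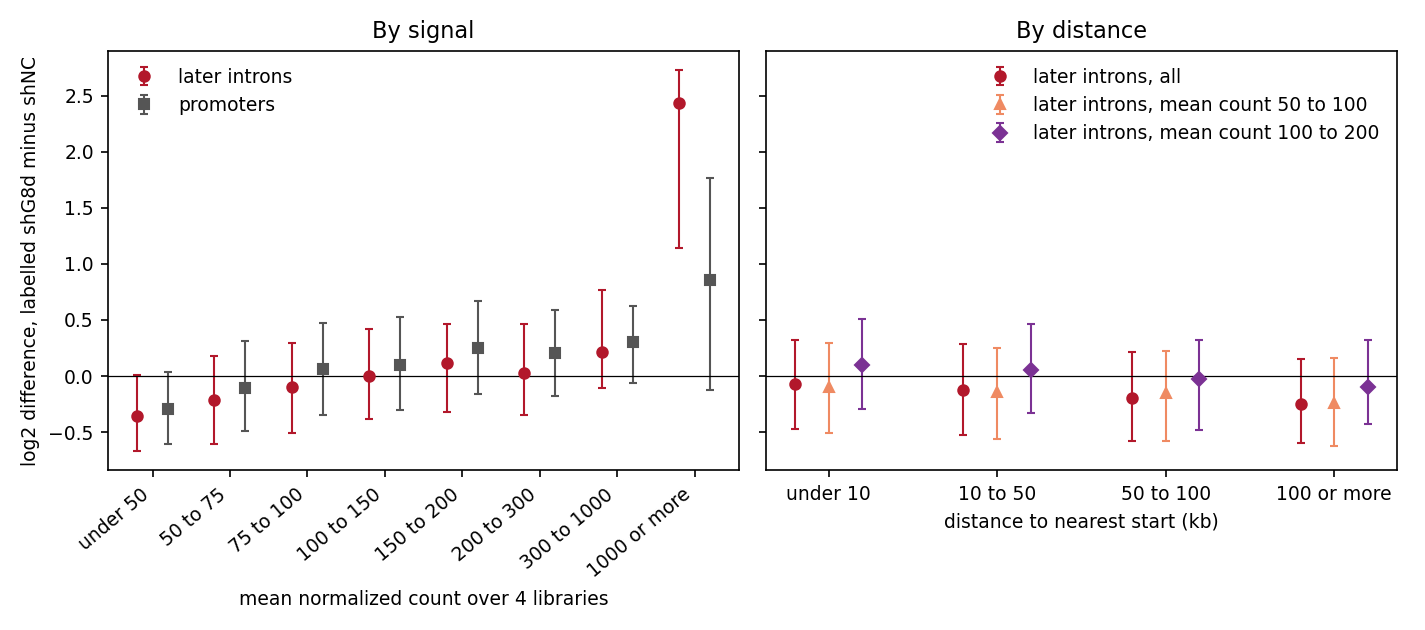
Log2 difference, libraries labelled shG8d minus shNC (vertical axis, medians with bars from the lower to the upper quartile), by mean normalized count for later introns and promoters (left) and by distance to the nearest start in kb for later introns, in all and within bands of signal (right). Medians run from -0.36 under 50 to 0.21 at 300 to 1000 for later introns, with a dip to 0.03 at 200 to 300, and decline with distance in each series on the right; the topmost signal band holds 17 later-intron regions and 8 promoters.

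A handful of members stood far above the rest in signal, and many of the largest positive differences were among them. There were 17 members with a mean of 1000 normalized counts or more, among 91 such regions in the table. Of these members 12 were called higher and 2 lower, with a median log2 difference of 2.44. Common regions this strong in other classes also had more higher than lower calls. Intergenic regions had 25 of 38 called higher and 10 lower (median 1.80). First introns had 3 of 6 higher and 1 lower (1.02), and promoters 4 of 8 higher and 1 lower (0.86). The strongest, in intron 2 of PCBD2, had 207960 and 187644 normalized counts in the libraries labelled shG8d, against 104169 and 76812 in those labelled shNC. Its log2 difference was 1.14 ± 0.61 (SE) and was not called, though the groups did not overlap. The SE given after ± is limma's moderated value, which draws a region's own spread toward a trend over regions of like signal. Intron 6 of SMAD2, the gene of a TGF-beta signal transducer, had 23242 and 19796 normalized counts against 6643 and 6789.6, a log2 difference of 1.68 ± 0.25 that was called. A region in intron 3 of PDZRN4 had 25557 and 20902 normalized counts in the libraries labelled shG8d, against 5030.4 and 2179 in those labelled shNC. It was called higher, with 2.80 ± 0.30. KIAA0825 held 3 of the 17, of which the strongest had 20719 and 18270.3 against 8964 and 6754 and a log2 difference of 1.32 ± 0.26, called higher. The second by signal in that gene had 15942 and 13114 against 3256 and 1658, with 2.64 ± 0.26, called higher. Of these KIAA0825 calls the first was lost without shG8d A, and the second held without each library in turn.

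Of the 10 largest called positive differences, 6 were among these strong members. The 10 lay in DYNC2H1 (3.06), JAK2 (2.92), CORIN (2.80), PDZRN4 (2.80), RSPO1 (2.78), AKAP6 (2.75 and 2.66), VPS13B (2.73), LARP1B (2.68) and HDX (2.64). The region in intron 19 of JAK2, which encodes a cytokine receptor kinase, had 1098 and 867 normalized counts in the libraries labelled shG8d, against 215 and 76.2 in those labelled shNC. The region in intron 85 of DYNC2H1, a dynein of cilia, had 1871 and 1665 against 320.1 and 138. In both regions the libraries labelled shNC differed from each other by more than 2-fold. Over the 10 regions the ratio of shNC A to shNC B had a median of 2.46 and ran from 1.63 to 2.82, where over all members it was 0.962. The ratio of shG8d A to shG8d B had a median of 1.31, against 0.998 over all members.

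The table also holds regions next to MTRNR2L genes, whose values are set beside those of the strong members. MTRNR2L genes are nuclear copies of part of the mitochondrial 16S ribosomal RNA gene. Of 14 regions within 5 kb of the start of an MTRNR2L gene, 12 were called higher, with a median log2 difference of 2.41. Their ratio of shNC A to shNC B had a median of 1.76, and that of shG8d A to shG8d B was 1.18. For the 17 strong members these medians were 1.91 and 1.19. Whether the strong members carry copies of mitochondrial or other repeated sequence was not tested. Members of mean 1000 or more took 33.5% and 30.6% of member reads in the libraries labelled shG8d, against 17.9% and 13.6% in those labelled shNC. Without the 17, 691 members were called higher and 1218 lower, with a median of -0.15.

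**Figure D3:**
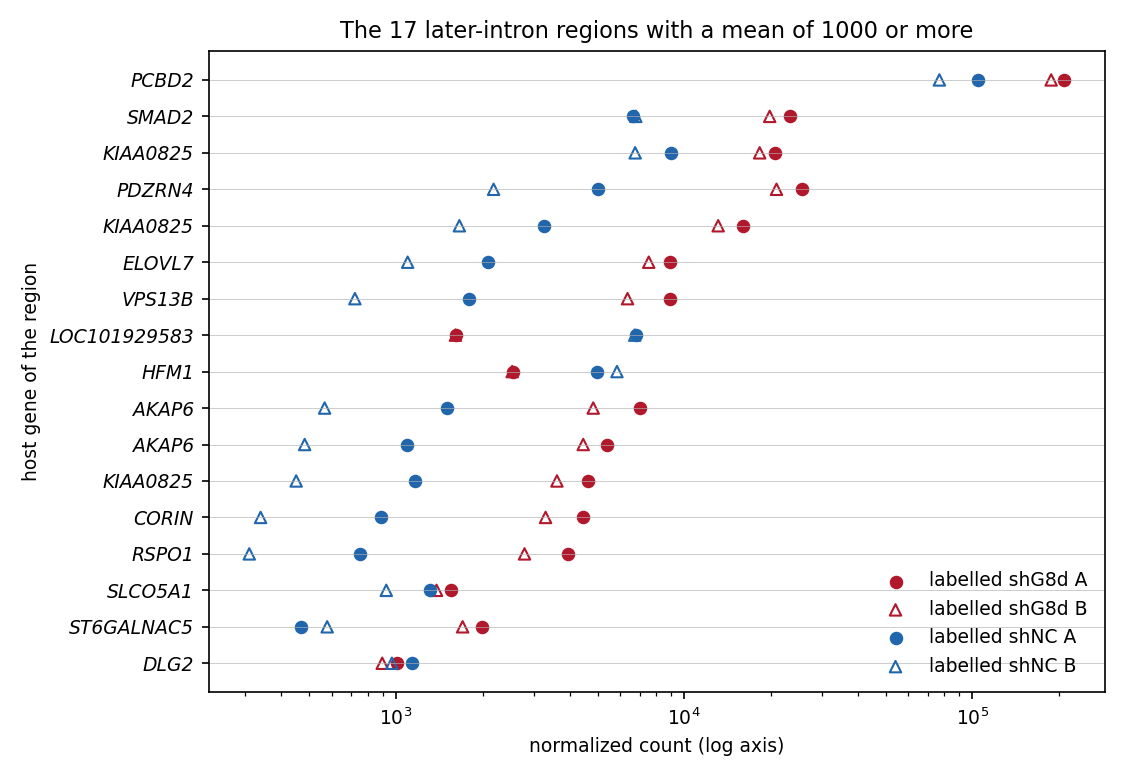
Normalized counts in each library (horizontal log axis) for the 17 later-intron regions with a mean of 1000 or more, one row per region with its host gene. In 12 rows both libraries labelled shG8d (red) lie to the right of both labelled shNC (blue) and the region was called higher, and shNC B lies left of shNC A in most of these; in LOC101929583 and HFM1 the order is turned round.

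Below a mean of 200 the largest positive differences, listed after their values were seen, ran from 1.64 to 2.45. SYN3, the gene of a synapsin, had 292 and 298 normalized counts in intron 3 in the libraries labelled shG8d, against 77.3 and 36.3 in those labelled shNC (2.45 ± 0.26, called higher). Intron 4 of AAMDC had 149.8 and 167 normalized counts, against 44.7 and 41.0, with 1.86 ± 0.23, called higher. In AAMDC the libraries of each group lay close together. The other 8 lay in PPM1L, AMY2A, PKP4, BIN1, MAPK8, LINC00630, SIPA1L3 and KDM2B. AAMDC had a ratio of shNC A to shNC B of 1.09. In SYN3 and these 8 that ratio ran from 1.59 in LINC00630 to 2.90 in PKP4. Over all members its median was 0.962. In PPM1L, a phosphatase gene, the libraries labelled shG8d had 309 and 200.1 normalized counts in intron 2, against 74.9 and 28.1 in those labelled shNC.

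The 10 largest called negative differences were mostly at ordinary signal, and their ratio of shNC A to shNC B ran from 0.616 to 1.17. A pair lay in intron 3 of the noncoding LOC101929583. The stronger had 1620 and 1607 normalized counts in the libraries labelled shG8d, against 6797 and 6731 in those labelled shNC, a log2 difference of -2.07 ± 0.18. The weaker had 177 and 164 against 574 and 650.3, a log2 difference of -1.84 ± 0.16. Intron 14 of DPYD, the enzyme that breaks down pyrimidines, had 23.6 and 27.4 normalized counts, against 103.9 and 99.6, with -1.96 ± 0.27. Intron 12 of CDC27, a subunit of the anaphase-promoting complex, had 61.4 and 69.4 against 236 and 252, with -1.88 ± 0.20. CDC27 has copies elsewhere in the genome, and the sources used here do not say how reads from such copies were placed. The other 6 lay in SPOCK2 (-1.94), COL22A1 (-1.78), CPEB3 (-1.76), VPS13B (-1.76), SULT1B1 (-1.75) and PTPRD (-1.74). VPS13B thus held members near both ends of the range, in introns 25 and 43.

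The Hippo pathway regulates growth through the coactivator YAP1, which binds DNA by way of TEAD factors, and in epithelial cells it responds to adhesion and tension. Of 23 genes on the Hippo and YAP list, 14 hosted 38 members, of which 3 were called higher and 11 lower, with a median of -0.30. That is 7.89% higher and 28.9% lower, where all regions had 11.1% and 12.4% and all members 8.95% and 15.5%. The shares over all regions and all members are the background for the counts of each list below. No list was tested against this background. Intron 2 of YAP1 had 42.9 and 45.2 normalized counts in the libraries labelled shG8d, against 159 and 135 in those labelled shNC. Its log2 difference was -1.71 ± 0.23, and the region was called lower. The YAP1 members in introns 3 and 7 were called lower as well, with -0.83 ± 0.25 and -1.01 ± 0.29. The stronger YAP1 promoter region had 76.6 and 71.8 normalized counts against 111 and 104. Its log2 difference of -0.53 ± 0.22 was not called. The weaker, from the set specific to shNC, had 65.6 and 76.7 against 68.9 and 51.6 and was not called either (0.25 ± 0.26).

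TEAD1, the gene of a DNA-binding partner of YAP1, hosted 10 members. A region in its intron 2 was called lower, with 68.2 and 82.3 normalized counts in the libraries labelled shG8d against 178 and 176 in those labelled shNC (-1.23 ± 0.20). Another in intron 3 was called lower at -1.24 ± 0.34, and the other 8 ranged from -0.55 to 0.53 and were not called. The kinase genes STK3 and STK4, which act upstream of YAP1, had 2 of 4 and 1 of 3 members called lower. WWTR1, the gene of the YAP1 relative TAZ, had 1 member called higher (0.53 ± 0.19) and 1 lower (-0.84 ± 0.26). The highest on the list was intron 3 of VGLL4, a competitor of YAP1 for TEAD factors, with 337 and 304 normalized counts against 170 and 141 and a log2 difference of 1.04 ± 0.18, called higher. The calls in intron 2 of YAP1, intron 2 of TEAD1 and intron 3 of VGLL4 held without each library in turn. The other calls named here were lost without shG8d A or shG8d B. Leaving out a library leaves 1 in its group, and without shG8d A or shG8d B calls fell over the members in general. A lost call, here or elsewhere in the text, therefore does not show that a difference rests on that library. The count of lower calls on the list was 3 without shG8d A, 5 without shG8d B, 7 without shNC B and 14 without shNC A, and 18 with equal library totals.

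Genes of the actin cytoskeleton and its regulation, 21 of 30 on the list, hosted 51 members. Of these 3 were called higher and 11 lower, with a median of -0.20. TNS3, a tensin that links integrins to actin, had the highest called member, with 195 and 207 normalized counts in intron 4 in the libraries labelled shG8d, against 88.2 and 50.4 in those labelled shNC (1.58 ± 0.24). The lower calls on this list numbered 1 without shG8d A, 6 without shG8d B and 7 without shNC B, and 23 with equal library totals. The TNS3 call held without each library in turn.

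Hemidesmosomes fasten basal epithelial cells to laminin-332 in the basement membrane. Of 15 genes on that list, 8 hosted 27 members, of which 5 were called higher and 5 lower, with a median of 0.01. PLEC, the gene of the hemidesmosome linker plectin, had members called higher in intron 6 (438 and 460.0 normalized counts, against 185 and 176; 1.31 ± 0.16) and intron 2 (248 and 262 against 134 and 93.7; 1.18 ± 0.20). Its promoter region, the strongest where several are listed, was called higher too, at 0.85 ± 0.17. DST, which encodes another plakin of the same structure, had 1 of 11 members called higher and 3 lower, the lowest in intron 2 with 25.2 and 29.9 normalized counts against 49.5 and 66.8 (-1.04 ± 0.31). ITGA3, an integrin gene, had 1 member called higher. The PLEC calls held without each library in turn, while those named in DST and ITGA3 were lost without shG8d A.

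LAMA3 encodes the alpha chain of laminin-332. The stronger of its 2 promoter regions had 368 and 311 normalized counts in the libraries labelled shG8d, against 166 and 166 in those labelled shNC (1.02 ± 0.17, called higher). The other had a log2 difference of 0.44 ± 0.23 and was not called. Its member in intron 2 had 70.7 and 81.5 normalized counts against 158 and 123, and was called lower at -0.87 ± 0.22. A member in intron 3 of a shorter transcript had 66.5 and 66.2 against 109 and 108, and was called lower at -0.70 ± 0.22. The remaining pair of LAMA3 members had -0.17 ± 0.25 and 0.38 ± 0.23 and were not called. Both LAMA3 calls were lost without shG8d A, and the one in intron 3 without shG8d B as well. On the whole list, higher calls numbered 2 without shG8d A, 3 without shG8d B and 8 without shNC A, and lower calls 0 without shG8d A and 2 without shG8d B. With equal library totals 2 were higher and 7 lower, so the even split rests on the scaling.

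The list of epithelial transcription factors had 21 members in 6 of its 18 genes, with 1 called higher, 5 lower and a median of -0.22. RUNX1, a regulator of mammary and blood cell fate, held both extremes, each in intron 2 of a different transcript. One had 22.7 and 16.9 normalized counts in the libraries labelled shG8d, against 44.7 and 58.6 in those labelled shNC (-1.34 ± 0.35, called lower). The other had 168 and 173 against 95.4 and 115 (0.70 ± 0.19, called higher). TP63, which specifies the basal layer, had 5 members from -0.58 to -0.10, of which 1 in intron 4 was called lower, with 117 and 132 normalized counts against 174 and 196 (-0.56 ± 0.19). GRHL2, a factor that maintains epithelial junctions, had 1 of 4 called lower, in intron 8 (-1.25 ± 0.23). Lower calls on this list numbered 2 without shG8d A and 2 without shG8d B, with none higher. Without shNC B there were 3 higher and 4 lower, and with equal library totals none higher and 10 lower. The GRHL2 call held without each library in turn, and those in RUNX1 and TP63 did not.

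Cell junction and polarity genes had 44 members in 12 of 23 genes, with 4 called higher and 2 lower, and a median of -0.02. CTNNA1, the gene of alpha-catenin, had 28.6 and 23.4 normalized counts in intron 6 in the libraries labelled shG8d, against 87.0 and 72.6 in those labelled shNC (-1.58 ± 0.29, called lower). CTNND1, the gene of p120-catenin, had 301 and 290.5 against 180 and 178 (0.72 ± 0.17, called higher). CDH1, which encodes E-cadherin, had 1 of 6 members called higher, in intron 2 (0.69 ± 0.20). With equal library totals 11 members of this list were called lower and none higher, and without shG8d A or shG8d B 1 was lower and none higher. Without shNC A the balance turned, with 5 higher and 6 lower. The CTNNA1 call held without each library in turn, and those in CTNND1 and CDH1 were lost without shG8d A or shG8d B.

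TGF-beta and SMAD genes had 23 members in 8 of 20 genes, with 3 called higher, 4 lower and a median of -0.23. Its lower calls numbered 1 without shG8d A or shG8d B, 6 without shNC A and 10 with equal library totals, and without shNC B 4 were higher and 3 lower. Besides the strong SMAD2 region, the receptor gene TGFBR2 had 2 of 3 members called lower (-0.78 ± 0.24 and -0.64 ± 0.22), and LTBP2 had the lowest called member of the list, in intron 3 (-1.22 ± 0.30). EGF receptor and MAPK genes had 7 members in 4 of 21 genes, with MET called higher in intron 2 (216 and 211 normalized counts, against 122 and 98.4; 0.96 ± 0.19) and the ligand gene TGFA called lower (-0.78 ± 0.24). The lower calls of that list numbered 0 without shG8d A or shG8d B, and 4 without shNC A or with equal library totals. The 4 members in MET, the receptor of hepatocyte growth factor, otherwise ranged from -0.93 to -0.32. Chromatin and histone H1 related genes had 17 members in 10 of 36 genes, with 2 higher, 2 lower and a median of 0.24. Without shG8d A there were none, without shG8d B 0 higher and 1 lower, without shNC A 4 higher and 3 lower, and with equal library totals 0 higher and 5 lower. ARID1A, a remodelling subunit, was called higher (0.79 ± 0.23) and the DNA methyltransferase gene DNMT3A lower (47.1 and 48.4 normalized counts, against 87.0 and 108). Matrix and mesenchymal genes had 16 members in 10 of 21 genes, and limma called none of them, with a median of 0.04. The SMAD2 and MET calls held without each library in turn, and those in TGFBR2, TGFA, LTBP2, ARID1A and DNMT3A were lost without shG8d A. At an unadjusted p under 0.05 the matrix list had 3 higher and none lower, and voom on recovered reads called none. Limma called 2 higher and 2 lower without shNC A, 2 higher without shNC B, 1 higher with common regions alone and 3 lower with equal library totals.

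Lists for cell types outside the line were counted in the same way. Neuronal genes had 56 members in 17 of 23 genes, with 4 called higher, 13 lower and a median of -0.25. The lower calls numbered 4 without shG8d A, 5 without shG8d B and 26 with equal library totals. Without shNC B the balance turned, with 9 higher and 7 lower. SYT1, a synaptic vesicle protein gene, was lowest among the called (29.5 and 42.0 normalized counts, against 100.3 and 77.3; -1.30 ± 0.28). The share of neuronal members called lower, 23.2%, stood near those of the epithelial transcription factor list (23.8%) and the actin list (21.6%), with 28.9% on the Hippo and YAP list. Neuronal members were also weaker, with medians of 49.2 and 52.9 against 53.8 and 62.1. Blood cell genes had 16 members in 7 of 20 genes, with 3 called higher and 2 lower, and a median of -0.15. With equal library totals 1 was higher and 7 lower, and without shG8d A or shG8d B 1 was higher and 1 lower. The highest and lowest called were IKZF1 (1.14 ± 0.22) and PTPRC (-1.14 ± 0.28). The SYT1 and IKZF1 calls held without each library in turn, and the PTPRC call was lost without shG8d B.

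**Figure D4:**
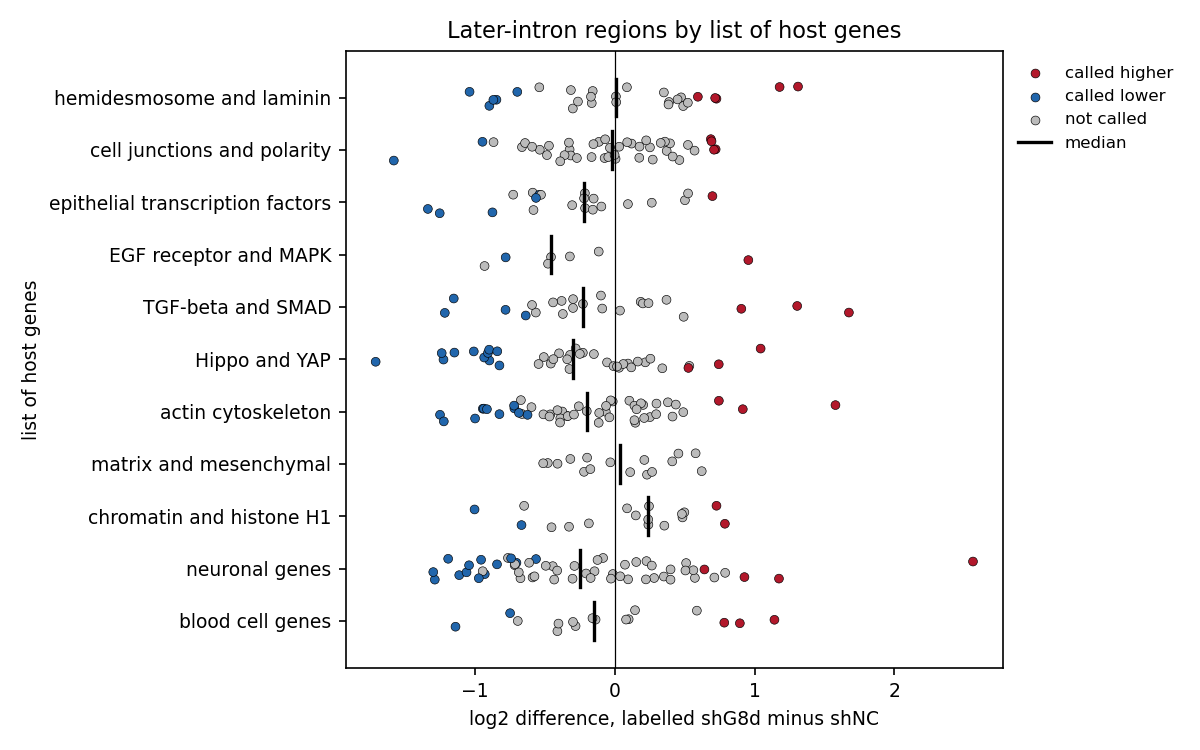
Log2 difference of each later-intron region, libraries labelled shG8d minus shNC (horizontal axis), by list of host genes (rows), with called regions in colour and the median of each list as a bar. Medians run from -0.46 for the 7 regions of EGF receptor and MAPK genes to 0.24 for chromatin and histone H1 related genes, and each list spreads to both sides of 0.

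Some genes had members called in opposite directions. Among the 274 host genes with 5 or more members, 63 had called members in both directions, 45 had higher calls alone, 112 had lower calls alone and 54 had none. Over all members 8.95% were called higher and 15.5% lower. How many genes would hold both directions by these shares alone was not tested. The SD of the log2 difference within a gene had a median of 0.52, against 0.59 over all members, while the medians of the genes had an SD of 0.28. FOXP1, a forkhead repressor and the host with most members, had 4 of 21 called, all lower, and a range from -1.68 to 0.61. Its lowest member, in intron 2, had 48.8 and 51.6 normalized counts in the libraries labelled shG8d, against 123 and 214 in those labelled shNC (-1.68 ± 0.25). PDE4D, a cyclic AMP phosphodiesterase gene with 13 members, ranged from -1.71 ± 0.24 in intron 4 to 0.78 ± 0.18 in intron 2, both called. The lower of the pair held without each library in turn, as did that of FOXP1, and the higher was lost without shG8d B. KIAA1217, with 15 members, ranged from -1.54 ± 0.34 to 1.02 ± 0.18, both called. Its highest call held without each library in turn, and its lowest was lost without shG8d A.

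In ASTN2 limma called none of 14 members, which ranged from -0.57 to 0.45, with 2 higher and 2 lower at an unadjusted p under 0.05. ARHGAP26, a GTPase activator gene, had 2 of 14 members called lower, the lowest at -1.08 ± 0.35, a call lost without shG8d A or shNC A. RAD51B, a recombination gene, had 2 of 15 called higher, the highest with 157 and 140.4 normalized counts in intron 10, against 70.1 and 71.5 (1.06 ± 0.21). NTRK2, a neurotrophin receptor gene, had 2 of 13 called higher and 1 lower, and ranged from -0.62 ± 0.26, which was not called, to 0.86 ± 0.20, a call lost without shG8d A. MCC and PARD3 had both directions as well, with ranges from -0.89 to 0.57 and from -0.95 to 0.71. The highest MCC member was not called, its lowest was lost as a call without shG8d B, and both PARD3 calls were lost without shG8d A.

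**Figure D5:**
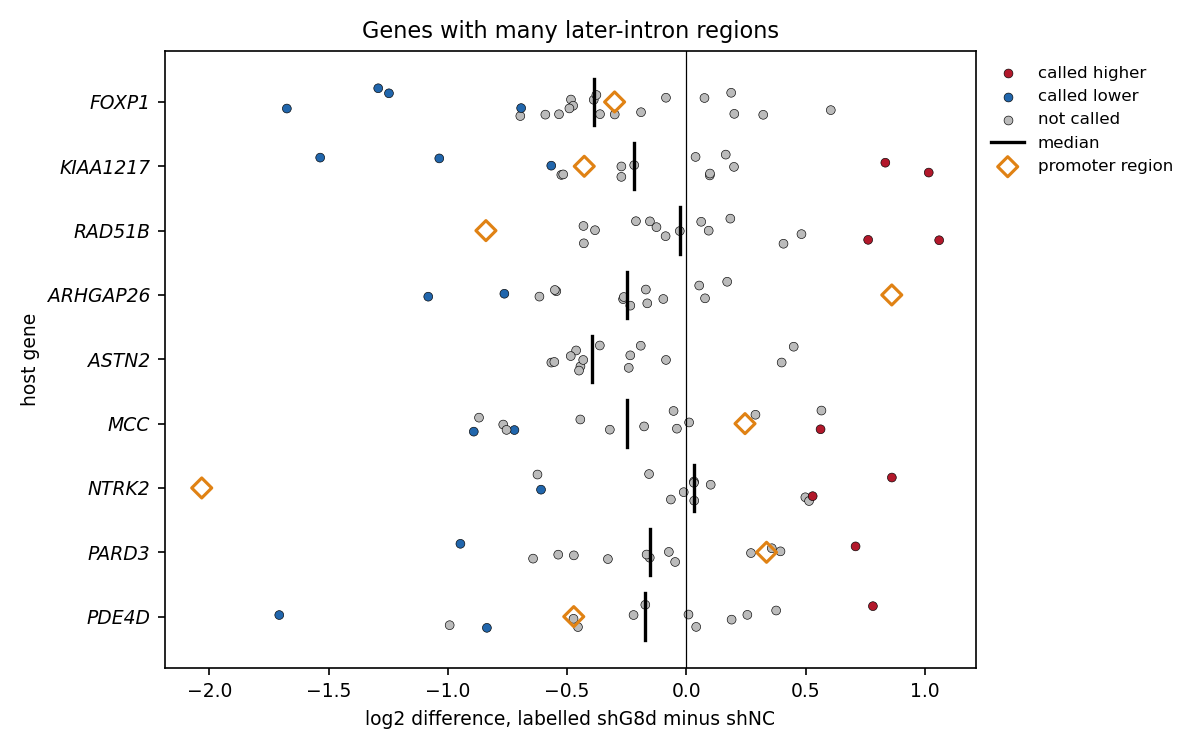
Log2 difference of each later-intron region, libraries labelled shG8d minus shNC (horizontal axis), in 9 host genes with 13 or more such regions, with called regions in colour, the median as a bar and the promoter region of the gene, where listed, as a diamond. Ranges within a gene reach from -1.71 to 0.78 in PDE4D, and promoter regions fall on either side of the intronic medians; some promoter regions belong to the sets specific to a group.

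Calls at later introns were set beside the call at the promoter of the host gene. A promoter region was listed for 1862 host genes, in any of the 3 sets, the strongest where there were several, with libraries named as in the common regions. Where that promoter was called higher (488 genes, 1026 members), 10.4% of members were called higher and 15.2% lower, with a median of -0.14. Where it was called lower (164 genes, 406 members), 7.39% were higher and 16.0% lower, with a median of -0.18. Where it was not called (1210 genes, 2462 members), the shares were 9.46% and 16.0%, with a median of -0.16. STK3 and TGFA, like LAMA3, had a promoter region called higher (0.80 ± 0.19 and 0.72 ± 0.19) and later introns called lower. PLEC and MET had calls in the same direction at both.

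Some later introns carry microRNAs, short RNAs that pair with messages through their seed, the bases at positions 2 to 8. There were 23 members whose nearest start, within 3 kb, was that of a microRNA gene, and 5 of these were called higher and 3 lower. At any distance, 536 members had a microRNA gene other than the host as their nearest start, and 24.3% of them were called. That share was 24.5% over all members and 23.6% over all regions. The 23 within 3 kb, with 5 higher and 3 lower, are few and were not tested against these shares. Nothing is read from them. Mature sequences of the 5 with the largest called differences follow, from RefSeq on GRCh38.p14, with the seed in capitals, to show that the 8 seeds all differ.

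hsa-miR-4774-5p: uCUGGUAUguaguagguaauaa
hsa-miR-4774-3p: aUUGCCUAacaugugccagaa
hsa-miR-5094: aAUCAGUGaaugccuugaaccu
hsa-miR-4711-3p: cGUGUCUUcuggcuugau
hsa-miR-4711-5p: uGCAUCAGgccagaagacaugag
hsa-miR-1229-3p: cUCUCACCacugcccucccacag
hsa-miR-1229-5p: gUGGGUAGgguuugggggagagcg
hsa-miR-619-3p: gACCUGGAcauguuugugcccagu

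The region 1182 bp from MIR4774, in intron 3 of the ceramide synthase gene CERS6, had 69.0 and 58.9 normalized counts in the libraries labelled shG8d, against 118 and 168 in those labelled shNC (-1.13 ± 0.23, called lower). The region by MIR5094, in AP3S2, had 35.3 and 63.8 against 87.0 and 109 (-1.02 ± 0.28), and the one by MIR4711, in FGGY, had 47.1 and 48.4 against 89.4 and 97.2 (-0.95 ± 0.24). Both were called lower. The region by MIR1229, in LTC4S, had 236 and 268 normalized counts against 159 and 109 (0.93 ± 0.20), and the one by MIR619, in SSH1, had 259 and 232 against 141 and 117 (0.92 ± 0.18). Both were called higher. The calls by MIR4774 and MIR1229 held without each library in turn, and the other calls by microRNAs were lost without shG8d A. The other 3 called regions, by MIR561, MIR4777 and MIR6830, had log2 differences from 0.54 to 0.68. Levels of the microRNAs themselves were not analysed here.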

How the data were processed

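The submitters' processing notes name CASAVA 1.4 and the build hg19. How reads were aligned, regions called and counted, and differences tested by the authors is not given in the sources used here. Per region, the deposited table gives, per the file headers, a log10 normalized value per library, the authors' log2 fold change and p-value, an annotation and a distance to the nearest start. The fold change and p-value of the authors served as a check and as 1 alternative. Raising 10 to the deposited log10 values gave normalized counts, and dividing by each library's step gave whole reads (100% of values within 0.05 reads). In the libraries labelled shG8d 1 read was worth 0.842 and 0.807 normalized counts, against 1.21 and 1.17 in those labelled shNC. All 4 value columns were mapped to samples, and 0 were left out. The expected unit was a linear normalized count, so the test for normalized values was run on the back-transformed values.

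Limma 3.58.1 in R 4.3.3, with a mean-variance trend, was fitted to log2(normalized count + 1) for all 58127 regions, labelled shG8d minus shNC. The pseudocount of 1 understates changes of low regions. A filter of 10 normalized counts in 2 libraries removed 0 regions. P-values were adjusted over the table by the Benjamini-Hochberg method, and the procedure was tested on simulated data. There it recovered 35% of 2-fold and 99% of 4-fold changes, and 2.90% of its calls were false. The simulation changed 100 regions at each size among 58127, far fewer than were called here, and gave all regions the same spread setting. Its rates therefore need not hold for these data. Members, lists and tests were chosen with earlier results of these data known. Named regions are the 10 largest called differences in each direction without overlap, the 5 strongest, the extremes of the 10 hosts with most members (ties kept), and the extreme called members of each of 11 gene lists. Further members of listed genes, microRNA neighbours, and strong or weak subsets were named after values were seen. Some regions that these rules name are not reported here. Host genes came from the annotated transcript through RefSeq (GRCh38.p14, names only). Region coordinates were not used here. The letters A and B were not taken as pairs.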

Additional observations from a re-analysis of the deposited data

How the results depend on the processing

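Median-of-ratios scaling, pseudocounts of 10 and 0.1, no filter, voom on recovered reads, common regions alone and the replicate block left from 698 to 829 members called higher and from 1145 to 1544 lower. The replicate block itself called 767 higher and 1348 lower. The letters A and B are only shared letters, and deviations of libraries with the same letter correlated at -0.0039 over all regions and 0.037 over members. Equal library totals called 252 higher and 2937 lower, with a median log2 difference of -0.50. Equal totals computed over regions of mean under 1000, chosen after seeing the data, called 693 and 1260. Which scaling is right, and why the strong regions differ between the labels, was not tested. A mean of at least 50 moved the median to -0.082 by leaving out the weakest members. Without the variance trend 314 were called higher and 710 lower, and the deposited p-value, adjusted and also chosen after seeing the data, called 303 and 476; the cause was not tested. Leaving out 1 library gave from 229 to 932 higher, from 402 to 1628 lower and medians from -0.19 to -0.13. Without shG8d A, 628 of the 1923 calls were kept, and without shG8d B 847. Of 110 named regions, none changed direction with a call in any alternative. Of these, 45 lost their call without shG8d A, 34 without shG8d B, 13 without shNC B, 4 without shNC A, 37 by the deposited p-value, 33 without the variance trend and 17 with equal totals. At the median depth of 61 to 84 reads per member, small differences were not detectable. A call sets a difference against a moderated spread, in which limma draws a region's own spread between libraries toward a trend over regions of like signal. A printed SE can therefore be smaller or larger than the region's own libraries alone would give.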
